A study of Mus musculus with 11 samples.

Results

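The renin-angiotensin system genes examined here were 7 of the 25006 genes counted in 11 libraries of mouse left ventricle, matched by symbol (Agt, Ace, Cma1, Agtr1a, Agtr2, Atp6ap2 and Nr3c2). The groups were naive mice labelled Vegfc fl/fl (control, n = 2, M44 and M45), naive mice labelled Vegfc fl/fl ; LysMCre (Vegfc-deficient, n = 3, M149, M150 and M34), MI control mice (n = 3, M006, M38 and M40) and MI Vegfc-deficient mice (n = 3, M35, M900 and M913). Infarcted myocardium was taken 9 days after permanent ligation of the left anterior descending coronary artery, with mass-matched left ventricle of naive mice for comparison. LysMCre is Cre recombinase placed in the Lyz2 gene, which is active in macrophages, monocytes and neutrophils, so that Vegfc is left intact in other cells of the heart. The sources differ on the controls: the genotype label gives Vegfc fl/fl for control mice, whereas the protocol gives LysMCre mice. The labels gave no age or sex.

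The system acts as a cascade. Angiotensinogen, the product of Agt, is cut by renin to angiotensin I. Angiotensin-converting enzyme (Ace) and, in the heart, chymase activity of mast cells convert angiotensin I to angiotensin II. Cma1 encodes a mast cell chymase, and its activity on angiotensin I was not measured here. Angiotensin II acts through the type 1 receptor (Agtr1a in mice, with the close paralog Agtr1b), which drives vasoconstriction and aldosterone release, and through the type 2 receptor (Agtr2), which is mostly opposed to the type 1 receptor. Atp6ap2, the prorenin receptor, is also an accessory subunit of the vacuolar proton pump. Nr3c2 encodes the mineralocorticoid receptor, through which aldosterone acts.

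Between 10824989 and 26782728 reads were counted per library, and 3 reads, taken here as the detection floor, corresponded to 0.101 to 0.363 CPM (read counts relative to library size, after TMM scaling); this floor covers counting error only. Several facts of these libraries bear on every comparison below. Vegfc was at 21.9 to 45.5 CPM and was no guide to genotype. Lyz2, which holds the Cre insertion, was at 12.4 to 1392 CPM in the Vegfc-deficient MI libraries, against 4538 to 5380 CPM for MI controls. The naive library labelled Vegfc-deficient M149 went against its label with 4565 CPM of Lyz2, compared with 72.5 and 245 CPM in M150 and M34 and 2121 and 2282 CPM in the naive controls. Transcripts of Y-linked genes summed to 152 to 195 CPM in the 5 naive libraries and to 0 to 1.84 CPM in the 6 MI libraries, whereas Xist was at 0.624 to 11.8 CPM and at 188 to 403 CPM. This is the pattern of male naive mice and female MI mice, although the labels gave no sex. For genes on any chromosome, sex and MI therefore cannot be told apart in these libraries. Agtr2 and Atp6ap2 also lie on the X chromosome. Cardiomyocyte markers (7 genes, none at 0) summed to 57764 to 81542 CPM in naive and 2236 to 22556 CPM in MI libraries, and fewer cells of a type and less RNA per cell cannot be told apart in bulk tissue.

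Promoter sequences are shown for the ligand gene, the converting enzyme and the mineralocorticoid receptor, because Agt and Nr3c2 fell after MI in both genotypes and Ace did not. The windows are 250 bases before to 50 bases after the RefSeq start on GRCm38.p6, written along the gene's strand, and a window was at hand for 6 of the 7 members. Capitals mark the TATA box letters TATAAA, the CCAAT box letters CCAAT and the GC box letters GGGCGG on either strand.
Agt, chr8:124569657-124569956, minus strand: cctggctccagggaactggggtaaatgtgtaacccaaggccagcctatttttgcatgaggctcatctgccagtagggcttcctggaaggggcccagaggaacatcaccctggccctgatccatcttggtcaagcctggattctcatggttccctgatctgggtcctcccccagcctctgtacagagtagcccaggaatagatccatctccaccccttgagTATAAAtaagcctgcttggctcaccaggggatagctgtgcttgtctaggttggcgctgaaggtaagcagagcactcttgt
Ace, chr11:105967698-105967997, plus strand: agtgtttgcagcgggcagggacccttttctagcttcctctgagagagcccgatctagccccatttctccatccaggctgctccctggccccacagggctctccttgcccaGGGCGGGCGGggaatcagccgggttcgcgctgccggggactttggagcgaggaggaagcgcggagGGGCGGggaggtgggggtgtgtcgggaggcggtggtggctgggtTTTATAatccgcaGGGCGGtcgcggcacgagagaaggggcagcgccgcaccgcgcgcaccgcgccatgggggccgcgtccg
Nr3c2, chr8:76902080-76902379, plus strand: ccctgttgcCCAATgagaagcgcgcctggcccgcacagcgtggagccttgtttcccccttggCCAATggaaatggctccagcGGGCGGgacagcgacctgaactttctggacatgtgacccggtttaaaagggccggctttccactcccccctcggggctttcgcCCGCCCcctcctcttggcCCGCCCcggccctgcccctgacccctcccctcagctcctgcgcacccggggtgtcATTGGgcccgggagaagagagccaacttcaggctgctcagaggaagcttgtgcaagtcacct
Agt carried TATAAA at position -30 and Ace carried it, on the opposite strand, at -31, with positions counted from the start site. Ace also held 4 GGGCGG matches, of which a pair overlapped, and the window of Nr3c2 held 3 CCAAT and 3 GGGCGG matches with no TATAAA. Among 32851 windows of the same length, 13.6% held TATAAA, 37.4% CCAAT and 35.7% GGGCGG. The letters AGAACA, a half-site read by steroid receptors, stood in 19% of windows and in none of these 3. GC content was 54.7% for Agt, 69.7% for Ace and 65.7% for Nr3c2, against a median of 52.7% over all windows. Ace had a second RefSeq start, with a window at chr11:105974939-105975238 that is not shown. That window held 1 CCAAT match, no TATAAA and no GGGCGG, with a GC content of 59.0%. These matches are a description of letters and not of factor binding.

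The first question was how the system's transcripts differed between infarcted and naive myocardium. After MI, Agtr1a, Agt and Nr3c2 were lower in both genotypes, by 6.02-fold, 4.37-fold and 3.06-fold in control hearts. In Vegfc-deficient hearts Cma1 was also lower and Ace was higher by 1.48-fold, while Atp6ap2 passed the test in neither genotype. Of the 7 members, 6 passed the filter on low counts (14779 genes did in all), and Agtr2 did not. In control hearts 3 of the 6 were lower and 0 higher at an adjusted p under 0.05 (edgeR's quasi-likelihood test, with p adjusted by the Benjamini-Hochberg method over every gene tested), where 24.1% of all genes tested were lower and 26.3% higher. In Vegfc-deficient hearts 4 of the 6 were lower and 1 higher, against 27.7% and 30.0% of all genes. The median log2 fold change over the 6 members was -1.45 in each genotype, beside 0.13 and 0.097 over all genes tested. All 6 MI libraries were below all 5 naive libraries for 3 of the 6 tested members (Agt, Agtr1a and Nr3c2), and 24.2% of all genes tested showed this pattern, with 24.5% showing the opposite one.

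**Figure D1:**
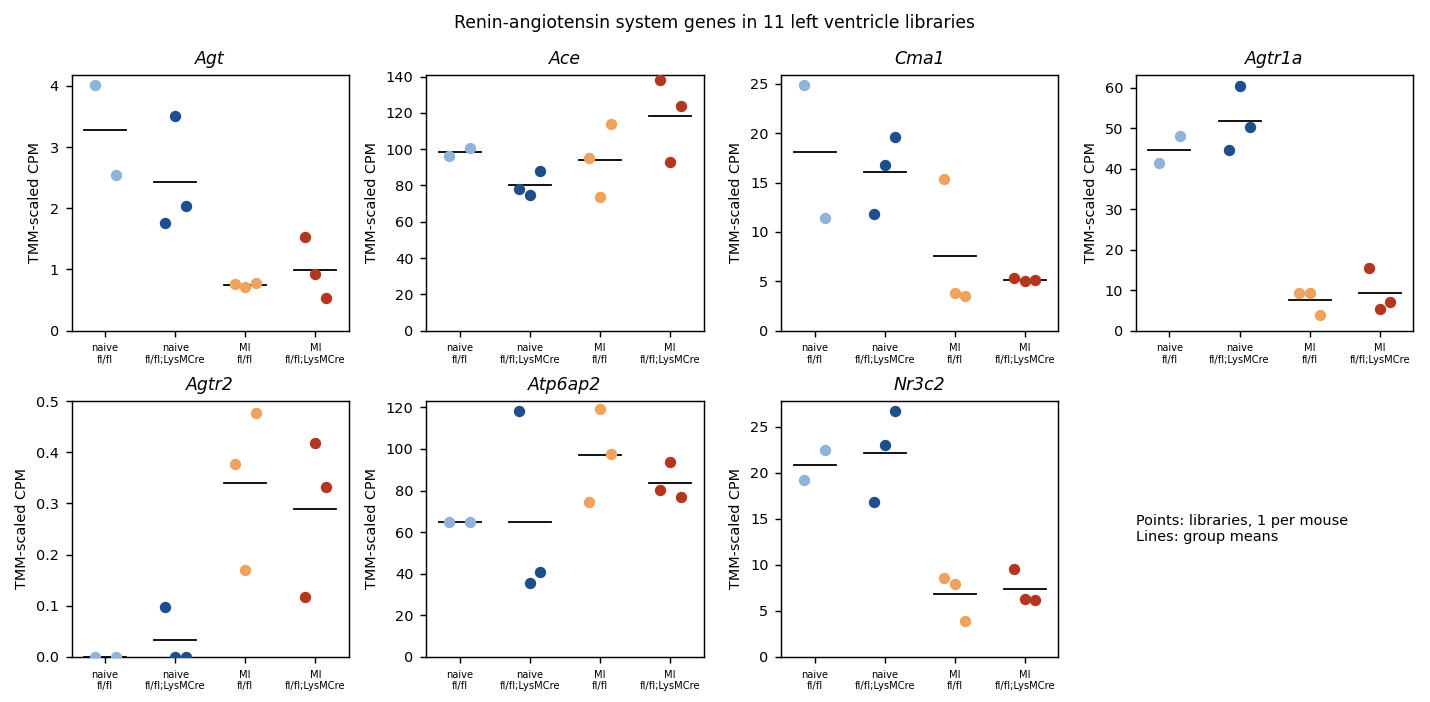
Each panel plots 1 gene, with TMM-scaled CPM on a linear vertical axis from 0 and the 4 groups on the horizontal axis. Points are libraries (1 per mouse) and lines are group means. The MI points of Agt, Agtr1a and Nr3c2 lie below all naive points, those of Agtr2 lie above them, and those of Ace and Atp6ap2 overlap with the naive points.

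Agt (ENSMUSG00000031980, chromosome 8 of GRCm38, 124556534 to 124569706, minus strand) was the least abundant member that passed the filter. It was at 4.01 and 2.54 CPM in the naive controls (M44, M45), and at 1.76, 3.51 and 2.03 CPM in the Vegfc-deficient naive hearts (M149, M150, M34). In infarcted hearts it was at 0.754, 0.710 and 0.770 CPM in the control hearts (M006, M38, M40) and at 1.53, 0.922 and 0.538 CPM in the Vegfc-deficient hearts (M35, M900, M913). The MI libraries were all lower than the naive libraries, and the highest MI value (M35) came close to the lowest naive value (M149). The log2 fold change of Agt was -2.13 (SE 0.47, edgeR adjusted p = 0.00441) in control hearts and -1.29 (SE 0.44, edgeR adjusted p = 0.0275) in Vegfc-deficient hearts. The call in Vegfc-deficient hearts was lost when M150, M900 or M913 was left out and with the groups compared alone (edgeR adjusted p = 0.0554). Summed cardiomyocyte markers fell alongside Agt: per 1000 CPM of these markers, Agt was at 0.0306 to 0.0606 CPM in naive and 0.0565 to 0.345 CPM in MI libraries. Relative to 1000 CPM of fibroblast markers, whose sum was higher after MI, Agt went the other way. It was at 0.341 to 0.755 CPM in naive and 0.0328 to 0.0926 CPM in MI libraries. Of these fibroblast markers, Col1a1, Col1a2, Tcf21 and Lum were higher in every MI library than in any naive library. For Pdgfra, Dpt and Dcn the naive and MI ranges overlapped. The part of cardiomyocytes and fibroblasts in the result was not tested.

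Ace (ENSMUSG00000020681, chromosome 11, 105967945 to 105989964, plus strand) is known mainly from endothelial cells, and also appears in macrophages and activated fibroblasts of the injured heart. It stood at 96.4 and 100 CPM in the naive controls, and at 77.9, 74.6 and 88.1 CPM in the Vegfc-deficient naive hearts (M149, M150, M34). In infarcted hearts it was at 95.0, 73.7 and 114 CPM in control libraries (M006, M38, M40) and at 138, 93.0 and 124 CPM in M35, M900 and M913. The control groups overlapped, whereas all 3 MI Vegfc-deficient libraries were above all 3 naive libraries of that genotype. The log2 fold change of Ace was -0.063 (SE 0.21, edgeR adjusted p = 0.815, 95% interval -0.52 to 0.39) in control hearts, where the sign turned under upper-quartile scaling and without M38. In Vegfc-deficient hearts it was 0.56 (SE 0.19, edgeR adjusted p = 0.0247). That call was lost without M149, the library against its label (log2 fold change 0.54, edgeR adjusted p = 0.0596), and also without M150, M35 or M913. The difference between the genotypes in the MI response was 0.62 on the log2 scale (SE 0.28, unadjusted p = 0.0466 from edgeR, adjusted p = 0.599) and did not pass the test.

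Endothelial and macrophage markers are given beside Ace. Endothelial markers summed to 1321 to 1815 CPM in naive libraries and 676 to 1431 CPM in MI libraries (8 genes, none at 0), and macrophage markers (6 genes, none at 0) to 822 to 1491 CPM and 1329 to 2892 CPM. Per 1000 CPM of endothelial markers, Ace was at 48.6 to 59.3 CPM in naive libraries and 66.4 to 169 CPM in MI libraries, so that these ranges did not overlap. Of the 8 markers, 3 were lower and 0 higher in control hearts, and 3 lower and 1 higher (Cdh5) in Vegfc-deficient hearts. Among all genes tested, 24.1% and 27.7% were lower and 26.3% and 30.0% higher. The outcome differed between single markers. Set against Cdh5 alone, Ace in Vegfc-deficient hearts was at 0.702 to 0.875 in naive and 0.672 to 0.908 in MI libraries, which overlapped. The ranges against Pecam1 overlapped as well. Against Kdr, Tie1, Tek, Emcn, Egfl7 or Esam alone, Ace was higher in MI libraries without overlap (for Tie1, 0.846 to 1.16 and 1.25 to 1.56). In control hearts the ranges overlapped for Pecam1, Cdh5 and Tie1. Relative to 1000 CPM of macrophage markers, the ranges of 52.2 to 104 CPM and 25.5 to 104 CPM overlapped. The part of these cells in the result was not tested. Ace shares 295 exon bases with the antisense gene Gm11651, which had 0 to 2 reads in every library.

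Cma1 (ENSMUSG00000022225, chromosome 14, 55941451 to 55944675, minus strand) encodes mast cell chymase. It was at 24.9 and 11.4 CPM in naive controls and at 11.8, 16.8 and 19.6 CPM in the Vegfc-deficient naive hearts (M149, M150, M34). In infarcted hearts it was at 15.3, 3.85 and 3.52 CPM in controls M006, M38 and M40, and at 5.29, 5.07 and 5.14 CPM in M35, M900 and M913. One MI control library, M006, was within the naive range, and the other 5 MI libraries were below it. The log2 fold change was -1.64 (SE 0.53, edgeR adjusted p = 0.0233) in Vegfc-deficient hearts, where Cma1 lost its call without M150, M34, M900 or M913. In control hearts it was -1.28 (SE 0.57, edgeR adjusted p = 0.0848), and without M006 it was -2.30 (edgeR adjusted p = 0.00177). With all libraries kept, the call in control hearts also depended on the method: DESeq2 gave an adjusted p of 0.0456 and limma-voom with sample weights one of 0.0253.

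Several, but not all, of the other mast cell protease genes followed Cma1 from library to library. Cpa3, mast cell carboxypeptidase, and Mcpt4, a mast cell protease with chymase-like activity, were also at naive levels in M006, with 15.6 and 11.4 CPM, whereas they were at 4.70 and 2.50 CPM in M38 and 3.999 and 2.46 CPM in M40. The ratio of Cma1 to Cpa3 stayed between 0.647 and 1.55 over all 11 libraries. That of Cma1 to Mcpt4 was at 0.827 to 1.18 in naive and 1.30 to 2.52 in MI libraries, without overlap. Mcpt4 was thus lower relative to Cma1 after MI. Mcpt4 had a log2 fold change of -1.73 (SE 0.65, edgeR adjusted p = 0.0461) in control hearts and of -2.31 (SE 0.62, edgeR adjusted p = 0.00926) in Vegfc-deficient hearts. Tpsab1, another protease gene of the mast cell list, did not follow Cma1. It was at 0.407 CPM in M34 and 2.97 CPM in M40, where Cma1 was at 19.6 and 3.52 CPM. The 10 mast cell markers, none at 0 throughout and not counting Cma1, summed to 56.0 to 96.1 CPM in naive and 30.01 to 67.5 CPM in MI libraries, the highest MI value again being M006. The list did not move as one: of 9 genes tested, 1 was higher and 2 lower in control hearts and 1 higher and 3 lower in Vegfc-deficient hearts. The shares over all genes tested were 26.3% higher and 24.1% lower in control hearts, and 30.0% and 27.7% in Vegfc-deficient hearts. Kit, the stem cell factor receptor, which other cells also carry, was the gene that rose, from 3.39 to 6.43 CPM in naive to 7.56 to 12.4 CPM in MI libraries, while Hdc, which makes histamine, was at 2.94 to 5.86 CPM and 3.18 to 7.88 CPM. Per 1000 CPM of these markers Cma1 was at 195 to 259 CPM in naive libraries and at 227 CPM in M006, but at 113 to 153 CPM in the other 5 MI libraries. The part of mast cell number in the result was not tested. Cma1 and the Mcpt genes are related proteases, so that reads shared between them would leave each level uncertain.

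**Figure D2:**
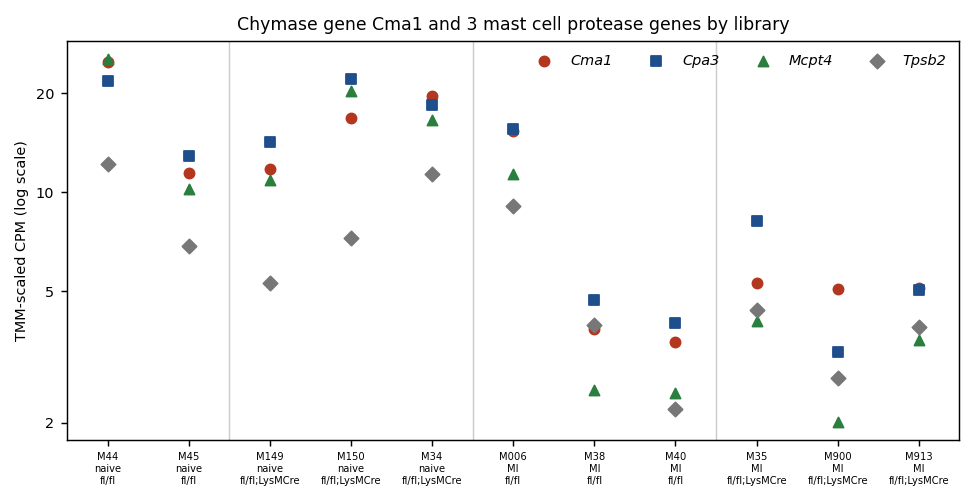
TMM-scaled CPM (logarithmic vertical axis) of Cma1 and of the mast cell protease genes Cpa3, Mcpt4 and Tpsb2 in each of the 11 libraries, which are ordered by group along the horizontal axis. In M006, an MI control, all these genes are higher than in the other 5 MI libraries.

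Agtr1a (ENSMUSG00000049115, chromosome 13, 30336441 to 30382867, plus strand) showed the largest fold change of the 6 tested members in both genotypes. It was at 41.3 and 48.0 CPM in naive controls and at 44.6, 60.4 and 50.2 CPM in the Vegfc-deficient naive hearts (M149, M150, M34). In infarcted hearts it was at 9.26, 9.30 and 3.74 CPM in control hearts (M006, M38, M40) and at 15.5, 5.37 and 6.96 CPM in M35, M900 and M913. The lowest naive value was more than double the highest MI value (M35). The log2 fold change was -2.59 (SE 0.45, edgeR adjusted p = 0.00127) in control hearts and -2.49 (SE 0.42, edgeR adjusted p = 0.000706) in Vegfc-deficient hearts, and the call held under every alternative that was run, the adjusted p ranging up to 0.0119 and 0.00543. Agtr1b was at 0 to 3 reads per library, and reads shared between these paralogs would leave both uncertain.

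Pericytes and fibroblasts are cells known to carry the type 1 receptor in the mouse heart. Pericyte markers (7 genes, none at 0) summed to 1736 to 2154 CPM in naive libraries and 826 to 1371 CPM in MI libraries, and fibroblast markers (7 genes, none at 0) to 4649 to 6017 CPM and 13103 to 21488 CPM. Col1a2 alone gave 295 to 432 CPM of the fibroblast sum in naive and 4559 to 9321 CPM in MI libraries. The naive and MI ranges of Dcn (3026 to 3952 and 3189 to 4618 CPM), Dpt and Pdgfra overlapped. In both genotypes 4 of the 7 pericyte markers were lower after MI and 2, Pdgfrb and Notch3, were higher. Among all genes tested, 24.1% were lower and 26.3% higher in control hearts, and 27.7% and 30.0% in Vegfc-deficient hearts. Rgs5 alone gave 1165 to 1513 CPM of the pericyte sum in naive and 412 to 929 CPM in MI libraries. Per 1000 CPM of the pericyte markers, Agtr1a was at 19.2 to 28.6 CPM in naive and 4.53 to 13.5 CPM in MI libraries. Relative to the same amount of fibroblast markers it was at 7.77 to 10.04 CPM and 0.222 to 0.940 CPM. Against both lists Agtr1a was lower after MI, with no overlap between naive and MI libraries. Relative to 1000 CPM of cardiomyocyte markers it was not, at 0.624 to 0.786 CPM in naive and 0.688 to 1.67 CPM in MI libraries. The part of these cells in the result was not tested.

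Agtr2 (ENSMUSG00000068122, chromosome X, 21484544 to 21489164, plus strand) was near the detection floor. It had 0 reads in both naive controls and 1, 0 and 0 reads in naive M149, M150 and M34, against 7, 5 and 13 reads in MI controls (M006, M38, M40) and 2, 10 and 8 reads in M35, M900 and M913. Every MI library had more reads than any naive library. Over the pooled reads, 25 in MI and 0 in naive controls, Agtr2 was at least 2.46-fold higher after MI, with the floor of 3 reads set over the group. In Vegfc-deficient hearts the pooled ratio was 9.46, with an exact 95% interval from 1.51 to 392 that covers counting error only. Without the filter on low counts edgeR gave an adjusted p of 0.0311 in control hearts and 0.06 in Vegfc-deficient hearts. Because 1 type 2 receptor read was counted for 21.96 and 28 type 1 receptor reads in MI control and MI Vegfc-deficient hearts, Agtr1a remained the more frequent transcript. The mean log2 ratio of Agtr1a to Agtr2 counts was 9.68 in naive and 4.62 in MI libraries, with p = 0.00216 in a 2-sided exact permutation test, the smallest that 462 arrangements of these libraries allow, but the naive value was set by the 0.5 added to counts of 0. Agtr1a was lower and Agtr2 higher in every MI library than in any naive library, so this p followed from the levels already given.

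Atp6ap2 (ENSMUSG00000031007, chromosome X, 12587801 to 12617049, plus strand) was at 64.7 and 64.9 CPM in naive controls. In the naive Vegfc-deficient group it was at 118 CPM in M149 but at 35.7 and 40.7 CPM in M150 and M34. In infarcted hearts it was at 74.7, 119 and 97.4 CPM in controls M006, M38 and M40, and at 80.2, 93.5 and 76.8 CPM in M35, M900 and M913. The library against its label, M149, thus had a level within the MI range, and every other naive library was below all MI libraries. With M149 the log2 fold change of Atp6ap2 was 0.58 (SE 0.44, edgeR adjusted p = 0.285) in control hearts and 0.37 (SE 0.38, edgeR adjusted p = 0.436) in Vegfc-deficient hearts. Without M149 these were 0.58 (edgeR adjusted p = 0.0292) and 1.13 (edgeR adjusted p = 0.00129), both past the threshold. With all 11 libraries, limma-voom with sample weights also called Atp6ap2 in Vegfc-deficient hearts (log2 fold change 0.77, adjusted p = 0.0445).

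The sum of macrophage markers was also highest in M149 among naive libraries (1491 CPM against 822 to 1096 CPM). Cd68 gave 527 CPM of it, and Adgre1, Csf1r and Mertk were highest there too. C1qa (431 CPM in M149, 466 in M150) and Fcgr1 (26.4 CPM in M149, 30.4 in M34) were not. Atp6ap2 per 1000 CPM of the macrophage markers was at 43.5 to 79.2 CPM in naive and 31.9 to 60.3 CPM in MI libraries, which overlapped. The part of macrophages in these levels was not tested. Of the 17 other proton pump genes, all tested, 0 were higher and 4 lower in control hearts, and 0 were higher and 7 lower in Vegfc-deficient hearts, with a median log2 fold change of -0.43 and -0.46, where 24.1% and 27.7% of all genes tested were lower. The soluble subunit genes Atp6v1d (log2 fold change -1.08 and -1.13), Atp6v1g1 (-0.77 and -1.34) and Atp6v1e1 (-1.19 and -0.73) fell in both genotypes. Atp6ap2 per 1000 CPM of the pump genes was at 17.3 to 33.1 CPM in naive and 39.1 to 61.3 CPM in MI libraries, without overlap.

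Nr3c2 (ENSMUSG00000031618, chromosome 8, 76899442 to 77245012, plus strand) was at 19.2 and 22.5 CPM in naive controls and at 16.9, 23 and 26.7 CPM in naive M149, M150 and M34. In infarcted hearts it was at 8.61, 7.91 and 3.93 CPM in control hearts (M006, M38, M40) and at 9.58, 6.25 and 6.21 CPM in M35, M900 and M913. All MI libraries were lower, with M40 the lowest and M35 the highest of them, as for Agtr1a. The log2 fold change was -1.61 (SE 0.33, edgeR adjusted p = 0.00294) in control hearts and -1.60 (SE 0.31, edgeR adjusted p = 0.00146) in Vegfc-deficient hearts. The call held under every alternative that was run, with the adjusted p ranging up to 0.0274 and 0.00875.

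Cardiomyocytes and endothelial cells both carry the mineralocorticoid receptor, and the 2 marker lists gave opposite pictures for Nr3c2. Per 1000 CPM of cardiomyocyte markers Nr3c2 was at 0.282 to 0.418 CPM in naive and 0.425 to 1.76 CPM in MI libraries, hence higher. Relative to endothelial markers, on the same scale, it was at 11.04 to 16.7 CPM and 5.51 to 9.85 CPM, hence lower. In which cells the level differed was not tested. Nr3c2 shares 247 exon bases with Gm10649 on the opposite strand, which had 0 to 5 reads per library.

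**Figure D3:**
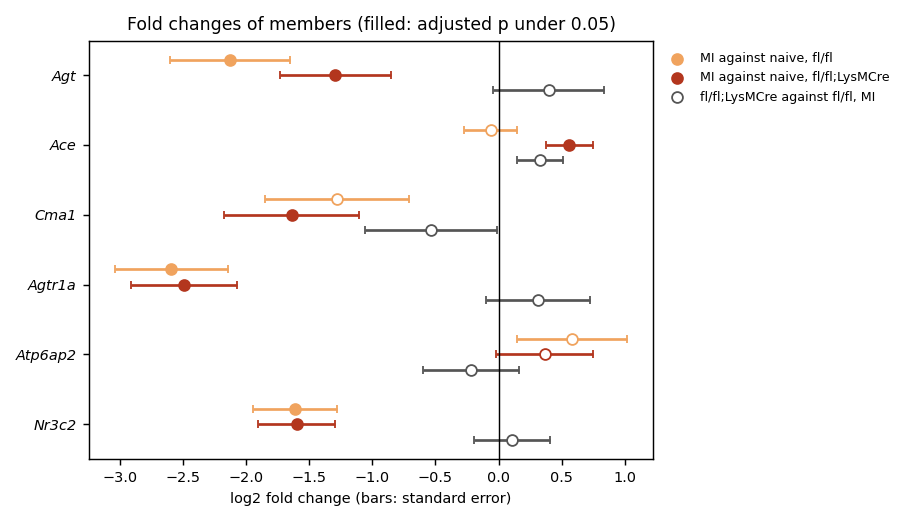
Log2 fold changes (horizontal axis) of the 6 members that passed the filter, with bars for the standard error and filled points for an adjusted p under 0.05. Agt, Agtr1a and Nr3c2 are filled and below 0 for MI against naive in both genotypes, Cma1 and Ace are filled in Vegfc-deficient hearts alone, and every point for genotype within MI is open.

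The second question was whether myeloid Vegfc deficiency changed the system within MI or naive hearts. No member passed the test in any genotype comparison, where 0.00% of all genes tested did so with edgeR (0 of 14779 in each). At an unadjusted p under 0.05, edgeR gave 1173 genes for genotype in MI hearts, 499 in naive hearts and 1226 for the difference in MI response, and at an adjusted p under 0.05 DESeq2 gave 58, 14 and 53 and limma-voom 0, 6 and 0, none of them a member. In MI hearts the log2 fold change, Vegfc-deficient against control, was 0.33 for Ace (SE 0.18, edgeR adjusted p = 0.67, 95% interval -0.081 to 0.74). It was -0.53 for Cma1 (interval -1.70 to 0.63), 0.40 for Agt (-0.58 to 1.37) and 0.31 for Agtr1a (-0.60 to 1.22). For Atp6ap2 it was -0.22 (-1.06 to 0.63) and for Nr3c2 0.11 (-0.56 to 0.78). Each of these intervals reached above a 1.5-fold increase and so did not exclude a change of that size. In naive hearts the log2 fold changes lay between -0.44 (Agt) and 0.21 (Agtr1a), and every adjusted p was 1. For Agtr2, 20 pooled reads in MI Vegfc-deficient and 25 in MI control hearts gave a ratio of 0.928 (exact 95% interval 0.489 to 1.74, counting error only).

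The order of the members by level was read from CPM per kilobase of exon (RPKM), since genes differ in length. By group mean, Atp6ap2 was first and Agtr2 last in all 4 groups. In the naive Vegfc-deficient group that first place rested on M149 (45.1 RPKM): in M150 and M34 Atp6ap2 was at 13.6 and 15.5 RPKM, below Agtr1a (21.7 and 18.0), Ace (14.1 and 16.7) and Cma1 (15.4 and 18.0). In naive controls Atp6ap2 (24.7 RPKM) was followed by Ace (18.6), Cma1 (16.7), Agtr1a (16.0), Nr3c2 (3.22) and Agt (1.73). The range of Cma1 (10.5 to 22.8 RPKM) spanned those of Ace and Agtr1a, so its place was not settled. Ace (18.2 to 19.0 RPKM) lay above Agtr1a (14.8 to 17.2 RPKM), but with the longest transcript as length Agtr1a moved ahead of Ace. In MI controls the levels were 37.1 RPKM for Atp6ap2, 17.8 for Ace, 6.95 for Cma1, 2.67 for Agtr1a, 1.05 for Nr3c2, 0.394 for Agt and 0.103 for Agtr2. Agtr1a, which was beside Ace in naive hearts, was thus well below it after MI, and its range overlapped with that of Cma1. The same ranks held in MI Vegfc-deficient hearts, where Ace was at 22.4 RPKM and Agtr1a at 3.33 RPKM. In naive Vegfc-deficient hearts Agtr1a (18.6 RPKM) was ahead of Ace (15.2 RPKM), with overlapping ranges.

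The other genes of the pathway give the setting for these changes. Of 21 further angiotensin genes (enzymes, receptors and Agtrap), 18 were tested. In control hearts 3 were higher and 4 lower after MI, and in Vegfc-deficient hearts 3 and 5, with a median log2 fold change of -0.095 and -0.066. Of all genes tested, 26.3% were higher and 24.1% lower in control hearts, and 30.0% and 27.7% in Vegfc-deficient hearts. Mas1, the receptor of angiotensin 1-7, fell by 3.04 on the log2 scale (SE 0.63, edgeR adjusted p = 0.00316) in control hearts and by 1.58 (SE 0.53, edgeR adjusted p = 0.0272) in Vegfc-deficient hearts, from 4 to 14 reads per naive library to 2 to 9 reads per MI library. Mme, neprilysin, which makes angiotensin 1-7 from angiotensin I, fell by 1.79 and 2.18 on the log2 scale. Prcp, a carboxypeptidase that trims angiotensin II, rose by 0.85 and 0.88 on the same scale.

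Renin itself was close to absent from the tissue: Ren1 had 0 to 2 reads per naive library and 0 to 10 reads per MI library and was not tested. Klk1, tissue kallikrein, had 0 reads in naive controls and 96 pooled reads in MI controls, at least 9.44-fold higher with the floor of 3 reads over the group. In Vegfc-deficient hearts the pooled ratio for Klk1 was 8.28 (exact 95% interval 2.13 to 71.0, counting error only). As a member of a large family of similar genes, Klk1 may share reads with its relatives. Among 7 genes of the kinin system, which Ace also serves by degrading bradykinin, 5 were tested: 1 was higher and 1 lower in control hearts, and 4 were higher and 0 lower in Vegfc-deficient hearts. The shares over all genes tested were 26.3% higher and 24.1% lower in control hearts, and 30.0% and 27.7% in Vegfc-deficient hearts. Bdkrb1, the inducible bradykinin receptor, had 0 pooled reads in naive and 29 in MI controls, at least 2.85-fold higher.

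Among 14 genes that carry or dampen signals of the type 1 receptor, 5 were higher and 1 lower in control hearts and 5 higher and 0 lower in Vegfc-deficient hearts. The median log2 fold change was 0.27 and 0.24. Among all genes tested, 26.3% were higher and 24.1% lower in control hearts, against 30.0% and 27.7% in Vegfc-deficient hearts. The beta-arrestin genes Arrb2 (log2 fold change 1.56 and 1.13) and Arrb1 (0.93 and 1.15), whose products desensitise the receptor, rose in both genotypes, as did Rgs2 (0.91 and 0.71), a brake on Gq signalling. Whether these rises bear on type 1 receptor signalling or on the cell make-up of the tissue was not tested.

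Of 15 corticosteroid genes 10 were tested, and 2 were higher and 2 lower in control hearts, while 0 were higher and 2 lower in Vegfc-deficient hearts. The medians were -0.16 and 0.17 on the log2 scale. Over all genes tested, 26.3% were higher and 24.1% lower in control hearts, with 30.0% and 27.7% in Vegfc-deficient hearts. Hsd11b1, which regenerates active glucocorticoid inside cells, was at 148 to 254 CPM in naive libraries and at 12.6 to 27.9 CPM in MI libraries. Its log2 fold change was -3.26 (SE 0.28, edgeR adjusted p = 0.000116) and -3.36 (SE 0.27, edgeR adjusted p = 3.3e-05), larger than that of any member tested. Sgk1, a kinase induced by corticosteroid receptors, fell by 1.06 and 0.74 on the log2 scale. Nr3c1, the glucocorticoid receptor, rose by 0.37 in control hearts (edgeR adjusted p = 0.0257), while its value in Vegfc-deficient hearts was 0.10 (edgeR adjusted p = 0.425). Hsd11b2, which protects the mineralocorticoid receptor from glucocorticoid, had 0 to 4 reads per naive library and 5 to 17 per MI library and passed the test in neither genotype. The aldosterone synthase gene Cyp11b2 was at 0 in all libraries.

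**Figure D4:**
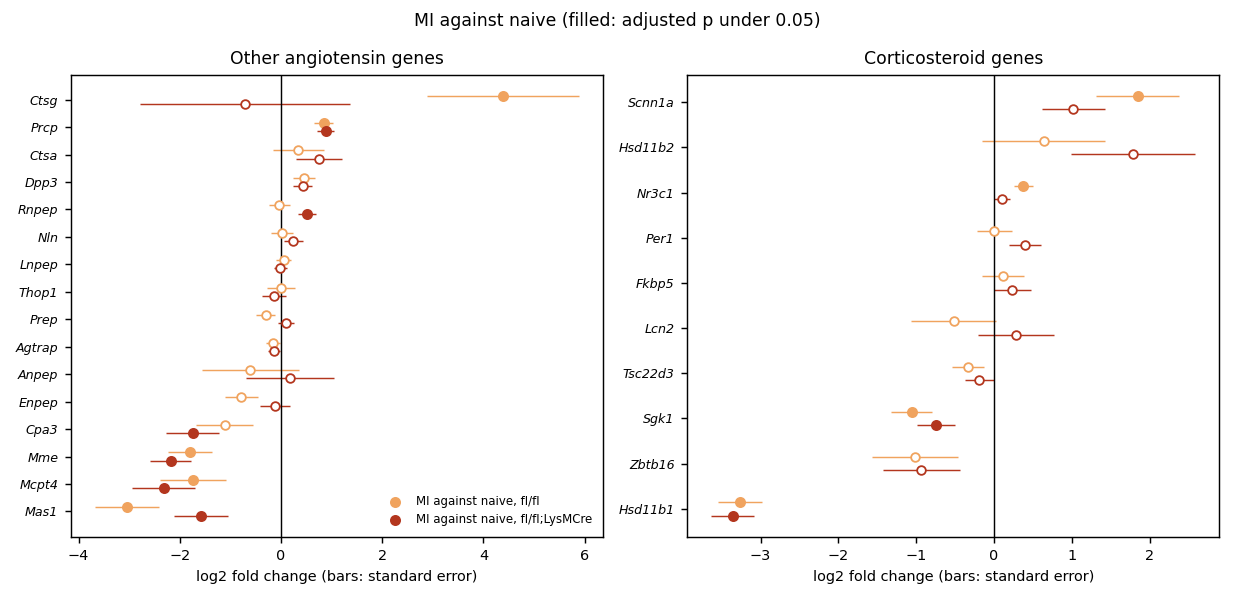
Log2 fold changes for MI against naive (horizontal axes, bars are standard errors) of other angiotensin genes and of corticosteroid genes that were tested and had reads in every group, with filled points for an adjusted p under 0.05. Mas1, Mme and Mcpt4 on the left and Hsd11b1 and Sgk1 on the right are below 0 and filled in both genotypes.

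The genes whose log2 CPM was most like that of a member over the 11 libraries are given as a description, by Pearson's r; all points share the split into MI and naive libraries. Mcpt4 (r = 0.974) came first for Cma1, followed by Klf2 (0.970) and Senp8 (0.948). For Agtr1a the nearest genes were Dele1 (0.998), Kcnj5 (0.997) and Ppp2r3a (0.997). For Nr3c2 they were Mrgprh (0.996), Gzmm (0.990) and Ppp2r5a (0.988), and for Agt they were Wdr77 (0.974), Mrps5 (0.969) and Gstm6 (0.966). For Atp6ap2 they were Itga4 (0.987), Asah1 (0.976) and Laptm5 (0.969), and for Ace Ehd2 (0.889), Sorbs3 (0.885) and Col5a3 (0.885). Ace thus had the weakest match of the 6 members. Agtr1a and Nr3c2 had an r of 0.984 with each other.

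After subtraction of each group's mean, which takes out the split between naive and MI, the nearest genes to Agtr1a were Lmo7 (r = 0.995), Dele1 (0.995) and Acadl (0.994). For Nr3c2 they were Kitl (0.987), Mrgprh (0.979) and Snai3 (0.970), and the r of Nr3c2 with Agtr1a was 0.884. For Atp6ap2 they included Diaph2 (0.989) and Dock2 (0.989), and for Cma1 B3gnt3 (0.976), Nemp2 (0.974) and Tead4 (0.968). For Agt they were Zfp82 (0.976), Csnk1a1 (0.974) and Wdr77 (0.945), and for Ace Vit (0.947), 4930579K19Rik (0.940) and Ppp6r2 (0.930). Dele1, Mrgprh and Wdr77 were thus among the nearest genes of their member by both measures. Over 11 libraries, with M149 and M35 standing apart in Atp6ap2 and Agtr1a, such values can rest on few libraries.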

How the data were processed

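RNA of left ventricular myocardium from 11 mice was sequenced as TruSeq Stranded mRNA libraries, 1 per mouse. Per the labels, the authors deposited raw read counts per Ensembl gene, without normalization. The submitters' processing notes name cutadapt 1.13, STAR, HTSeq 0.6.1p1, DESeq2 1.14.1 and the build mm10; the strand setting of the counting is not given in the sources used here. Of 25006 identifiers, 24942 were paired with a symbol through GENCODE M21 (GRCm38).

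Counts were analysed in R 4.3.3. Libraries were scaled by TMM, genes were filtered with filterByExpr, and groups were compared by edgeR 4.0.16 (quasi-likelihood test, 1 fit of all 11 libraries, Benjamini-Hochberg adjustment over 14779 genes, threshold 0.05). Of these steps, only the edgeR comparison of MI with naive control hearts was also run on simulated counts. The ratio of Agtr1a to Agtr2 was compared between naive and MI libraries by a 2-sided exact permutation test. Alternatives were DESeq2 1.42.0, limma 3.58.1 (voom with sample quality weights), DESeq2 size factors, upper-quartile factors, no filter, a mean CPM of at least 1, groups compared alone, a threshold of 0.01, the longest transcript as length, no count added in the ratio, and each library left out in turn. Intervals are at 95%. P-values measure the spread between single mice. Promoters are from RefSeq.

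The members and gene lists were chosen with earlier results of these data known. Genes outside the members were named by rule: the 4 (angiotensin and corticosteroid lists) or 3 (other lists) largest mean changes past the threshold in both genotypes, a set of known genes (Ren1, Agtr1b, Mas1, Nr3c1, Hsd11b1, Hsd11b2 and Sgk1), and the 3 genes most like each member by Pearson's r of log2 CPM and of its deviations from group means. Mme, Prcp, Cpa3, Tpsb2, Tpsab1, Kit, Hdc, Cdh5, Pdgfrb, Notch3, Rgs5 and Cyp11b2 were named, and levels per marker list were computed, after values were seen. The other single markers of endothelial cells, fibroblasts and macrophages were likewise named after values were seen. Cpa3 and Mcpt4 are in both the mast cell and the angiotensin list. Some genes that the rule names are not reported here.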

Additional observations from a re-analysis of the deposited data

How the results depend on the processing

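Agtr1a and Nr3c2 in both genotypes and Agt in control hearts kept their direction and call under every alternative that was run, and no member passed in a genotype comparison under any. The ratio of Agtr1a to Agtr2 kept its direction and call without single libraries, the only alternatives that could be run for it. As both genes separated MI from naive libraries, this outcome was set beforehand and adds no support. Members past the threshold in control hearts numbered 3, and 5 with DESeq2, which added Cma1 and Agtr2, or 4 with limma-voom, which added Cma1. In Vegfc-deficient hearts they numbered 5, and 6 with limma-voom (adding Atp6ap2), 4 with groups compared alone (losing Agt) and 2 at a threshold of 0.01, with 2 to 5 when single libraries were left out (2 without M150 or M913, 3 without M900). Other pathway genes past the threshold in control hearts numbered 14 at a threshold of 0.01 and 13 to 28 without single libraries (13 without M44, 14 without M45). In Vegfc-deficient hearts they numbered 15 with groups compared alone and 14 at 0.01. DESeq2 called 1 for genotype in MI hearts (Atp6v0e), and without M149 edgeR called 1, Anpep, for genotype in naive hearts and for the MI response; over the libraries left out both counts were 0 to 1. Signs of small differences turned. Under upper-quartile scaling Ace in control hearts was 0.0459 (-0.222 to 0.0234 without single libraries). The log2 genotype difference of Atp6ap2 in naive hearts was -0.0151 with DESeq2, -0.429 with limma-voom, -0.0146 with DESeq2 size factors, -0.00289 with upper-quartile factors and -0.0118 without a filter, and -0.760 to 0.291 without single libraries. With limma-voom the genotype difference was -0.0471 for Agt in MI hearts (-0.0276 to 0.710 without single libraries) and 0.0134 for Cma1 in naive hearts (-0.631 to 0.490). With limma-voom the difference in MI response was -0.171 for Agtr1a (-0.475 to 0.412), 0.277 for Atp6ap2 (-0.508 to 0.543) and -0.134 for Nr3c2 (-0.267 to 0.246). Without single libraries the genotype difference ranged from -0.0658 to 0.256 for Nr3c2 in naive hearts and, in MI hearts, from -0.879 to 0.483 for Cma1, -0.265 to 0.615 for Agtr1a and -0.174 to 0.301 for Nr3c2, and the difference in MI response of Cma1 from -1.03 to 0.700. The causes of these turns were not tested. Upper-quartile scaling moved the median log2 fold change of all genes from 0.13 and 0.097 to 0.23 and 0.20. Without M44 or M45 the naive control group held 1 library, assumed to vary like the other groups. The ratio of Agtr1a to Agtr2 without an added count and the genotype difference in MI response with groups compared alone could not be computed. Agtr2, Ren1, Agtr1b and Mas1 were limited by depth.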
